A study of Mus musculus with 4 samples.

Results

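Expression of 8 secreted Wnt antagonists and 2 Wnt target genes was examined in the luminal epithelium and stroma of the mouse uterus. The antagonists were Sfrp1, Sfrp2, Sfrp4, Sfrp5, Frzb, Dkk2, Dkk3 and Wif1, and the target genes were Axin2 and Lef1. They were taken by gene symbol from both deposited tables, and 10 of 10 were found among 23235 genes. The females had mated with sterile (vasectomized) males, which makes them pseudopregnant without embryos, and uteri were taken on day 4. Luminal epithelium is the cell layer facing the uterine cavity, and stroma is the connective tissue beneath it; both were cut out by laser capture microdissection, and ribosomal RNA was depleted before stranded library preparation.

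There were 4 groups of 1 library each. They were luminal epithelium labelled knockout (Msx1 d/d and Msx2 d/d), luminal epithelium of the control (Msx1 f/f and Msx2 f/f), stroma labelled knockout and stroma of the control. Msx1 and Msx2 are homeobox transcription factors of the uterine epithelium before implantation. Every group came from pseudopregnant uterus of day 4, and the controls carried the undeleted floxed alleles of both genes. The series describes the deletion as uterine-specific, while nothing in the sources used here gives the Cre line, the deleted exons or the age of the mice. Only 1 mouse per genotype is described. Genotype therefore cannot be told apart from animal, and no value below has a replicate. The labels do not tie an epithelial library to the mouse of a stromal one.

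Wnt proteins are secreted signals that bind Frizzled receptors together with the co-receptors Lrp5 and Lrp6. In the branch that runs through beta-catenin, this binding spares beta-catenin from destruction, and beta-catenin then joins TCF and LEF factors at target genes. Secreted frizzled-related proteins (the Sfrp genes and Frzb) and Wif1 bind Wnt proteins outside the cell, while Dickkopf proteins such as Dkk2 bind the co-receptors. Axin2, a scaffold of the beta-catenin destruction complex, is itself switched on by the pathway and is widely used as its readout. In the mouse uterus, Wnt signals pass between epithelium and stroma and take part in gland formation and implantation.

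The libraries differed in depth. Estimated from the values, depth was 90.7 M reads in luminal epithelium labelled knockout, 6.29 M in luminal epithelium control, 62.5 M in stroma labelled knockout and 42.7 M in stroma control. Between the epithelial libraries, depth differed by a factor of 14.4. A value of 0 is written as listed at 0, because the ribosomal protein gene Rpl26 was also listed at 0 in both controls. Msx1 stood at 13.6 RPKM in luminal epithelium labelled knockout and 23.2 RPKM in its control. Msx2 stood at 2.06 RPKM in luminal epithelium labelled knockout and 1.31 RPKM in its control, which goes against the label, although reads from undeleted exons cannot check a deletion. The libraries are therefore called labelled knockout, and directions are those of the labels. Marker lists of 9 cell types were read beside the captures: 11 general epithelial markers summed to between 445 and 502 RPKM in the epithelial libraries and to between 0.625 and 1.84 RPKM in the stromal ones. The 18 stromal markers summed to between 8.78 and 19.0 RPKM in epithelium and to between 471 and 746 RPKM in stroma.

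Most of the antagonists had higher levels in stroma than in luminal epithelium. In stroma, 6 of the 8 were measured above 0 in both libraries, led by Sfrp2, and Sfrp5 and Wif1 were listed at 0 in both. In luminal epithelium every antagonist was below 0.5 RPKM. RPKM are reads scaled by transcript length and by the size of the library, a scale on which genes of different length can be compared. The 8 antagonists summed to 15.5 RPKM in stroma labelled knockout and 15.1 RPKM in stroma control, and Sfrp2 alone gave 45.6% of the sum in stroma labelled knockout and 53.6% in stroma control. In luminal epithelium they summed to 0.517 RPKM in the library labelled knockout and 0.809 RPKM in control. The epithelial sum was thus 3.33% of the stromal sum in the labelled knockout and 5.37% in the control, across tables taken as normalized separately.

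**Figure D1:**
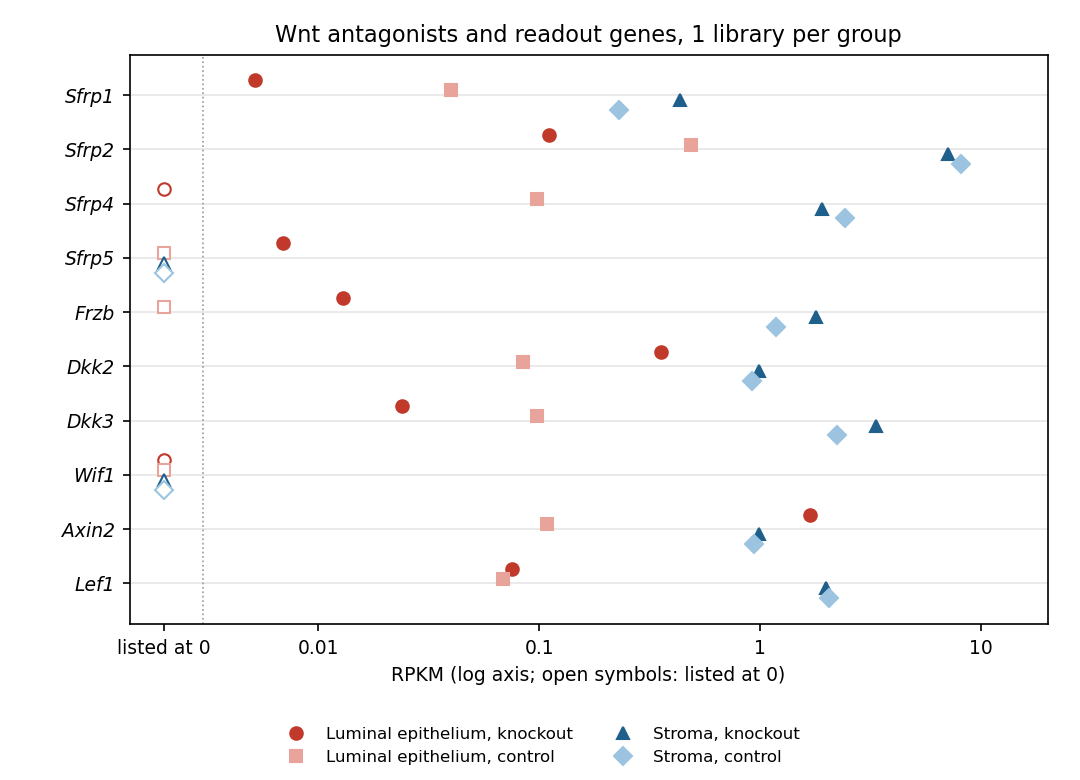
Expression of the 10 genes as RPKM on a log axis, with 1 symbol for each of the 4 libraries and open symbols for values listed at 0. The 6 antagonists measured in stroma, and Lef1, lie further right in stroma than in luminal epithelium. Axin2 reaches its highest deposited level, 1.68 RPKM, in luminal epithelium labelled knockout.

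Sfrp2, which encodes a secreted frizzled-related protein, was the most abundant of the 10 genes in both stromal libraries (chr3:83570243-83578236, 3 exons, with gene coordinates in mm9 throughout). It was at 0.111 RPKM in luminal epithelium labelled knockout, 0.489 RPKM in luminal epithelium control, 7.08 RPKM in stroma labelled knockout and 8.07 RPKM in stroma control. Both stromal values lay far above both epithelial values, and in each compartment the library labelled knockout was the lower one. The stromal ratio, knockout over control, was 0.877, with 95% exact binomial (Clopper-Pearson) limits of 0.789 and 0.976 on the estimated reads. Such limits cover counting error only, since amplified reads are not separate molecules. In stroma the level of Sfrp2 exceeded that of 94.3% of the genes above 0 in the library labelled knockout and 95.3% in the control.

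The epithelial ratio of Sfrp2 was 0.227, with counting limits of 0.0792 and 0.641, but the control value came from only about 6 estimated reads. Expressed as a share of stroma, epithelial Sfrp2 stood at 1.57% in the labelled knockout and 6.06% in the control. The stromal markers had median shares of 1.35% over 17 markers above 0 in the labelled knockout and 4.29% over 16 in the control. All 16 stromal markers above 0 in both epithelial libraries were lower in the one labelled knockout, at a median of 45.3% of control, with Tcf21 listed at 0 in both. The part of stromal RNA in the epithelial Sfrp2 values was not tested.

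Sfrp4, another frizzled-related protein of the stroma (chr13:19715044-19724692, 6 exons), was listed at 0 in luminal epithelium labelled knockout and stood at 0.0978 RPKM in luminal epithelium control. That control value corresponds to about 1 read. In stroma it was at 1.91 RPKM in the library labelled knockout and 2.43 RPKM in control, a ratio of 0.786 with limits of 0.635 and 0.978. Sfrp2 and Sfrp4 were thus the antagonists with stromal levels lower in the labelled knockout by counting limits. Their upper limits, 0.976 and 0.978, are close to 1. How many of all genes pass such limits was not counted.

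Frzb, also called Sfrp3 (chr2:80252127-80287553, 6 exons), was at 0.0130 RPKM in luminal epithelium labelled knockout and listed at 0 in luminal epithelium control. In stroma it was at 1.78 RPKM in the library labelled knockout and 1.18 RPKM in control. The ratio was 1.51, with limits of 1.23 and 1.84. Sfrp1 (chr8:24521974-24560104, 3 exons) was the lowest of the antagonists measured in stroma, at 0.435 RPKM in the library labelled knockout and 0.229 RPKM in control. Its ratio of 1.90 had limits of 1.31 and 2.76. In luminal epithelium Sfrp1 was at 0.00518 RPKM in the library labelled knockout and 0.0400 RPKM in control, from about 2 reads in the library labelled knockout and about 1 in control. That ratio of 0.129 had limits of 0.00722 and 8.19. Between these single stromal libraries, Sfrp1 and Frzb were thus higher and Sfrp2 and Sfrp4 lower in the one labelled knockout. None of these directions turned under 3 other scalings of the libraries. Those scalings moved the stromal median log2 difference of all compared genes only by between -0.06 and -0.05. The authors' own test marked none of these genes in stroma.

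Sfrp5 (chr19:42272461-42276742), the remaining frizzled-related gene, was at 0.00691 RPKM in luminal epithelium labelled knockout, about 1 read, and listed at 0 in the other 3 libraries. Wif1, the Wnt inhibitory factor (chr10:120471060-120537698), was listed at 0 in 4 of 4 libraries. Neither gene gives a comparison.

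Dkk3 is a Dickkopf family member whose effect on Wnt signalling varies between settings (chr7:119259533-119302571, 8 exons). It was at 0.0238 RPKM in luminal epithelium labelled knockout, 0.0978 RPKM in luminal epithelium control, 3.34 RPKM in stroma labelled knockout and 2.22 RPKM in stroma control. Dkk3 in stroma labelled knockout was at 150.1% of stroma control, with limits of 131% and 173%. The epithelial ratio of 0.243 had limits of 0.0462 and 2.40, which reach 1, from about 7 reads in the library labelled knockout and about 2 in control.

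Dkk2, a Dickkopf protein that binds the Lrp co-receptors (chr3:131748256-131843268, 4 exons), was the 1 antagonist with an epithelial ratio above 1 beyond counting error on the deposited scale. It was at 0.357 RPKM in luminal epithelium labelled knockout, 0.0846 RPKM in luminal epithelium control, 0.990 RPKM in stroma labelled knockout and 0.920 RPKM in stroma control. The stromal values lay close together, with a ratio of 1.08 and limits of 0.863 and 1.34. The epithelial ratio was 4.22, with wide limits of 1.06 and 32.8, from about 113 reads in the library labelled knockout and about 2 in control. These limits were taken on the deposited scale only, and the lower one is close to 1. The epithelial log2 difference, after adding 1 RPKM to both values, was 0.32 as deposited and between 0.28 and 0.34 under 3 other scalings. In the labelled knockout, the epithelial level was 36.1% of the stromal one, with limits of 28.3% and 45.3%. Of the 17 stromal markers above 0 there, Wnt4 stood higher, at 74.5%, and the next highest was Bmp2 at 3.85%. In the control, the epithelial level of Dkk2 was 9.19% of the stromal one, with limits of 1.18% and 36.2%.

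Lef1, a DNA-binding partner of beta-catenin and itself a target in many tissues (chr3:130813389-130926249, 12 exons), followed the antagonists. It was at 0.0754 RPKM in luminal epithelium labelled knockout, 0.0685 RPKM in luminal epithelium control, 1.98 RPKM in stroma labelled knockout and 2.05 RPKM in stroma control. The 2 stromal values were nearly equal, with a ratio of 0.968 and limits of 0.828 and 1.13. The epithelial ratio of 1.10 had limits of 0.247 and 63.0, because the control held about 1 read, and its direction turned under 2 of 3 other scalings. Lef1 and Dkk2 lie on the same strand of chromosome 3, 822 kb apart.

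Of the 6 genes above 0 in both epithelial libraries, Axin2 had the largest ratio between them (chr11:108781663-108812095, 11 exons). It was at 1.68 RPKM in luminal epithelium labelled knockout, 0.109 RPKM in luminal epithelium control, 0.993 RPKM in stroma labelled knockout and 0.938 RPKM in stroma control. As deposited, the epithelial library labelled knockout was the highest of the 4 and the epithelial control the lowest, with both stromal values between them. The compartments were taken as normalized separately. Other scalings brought the log2 difference between the epithelial and stromal libraries labelled knockout from 0.43 to between 0.02 and 0.19. The epithelial ratio was 15.4, with counting limits of 4.86 and 69.4. It rested on about 617 reads in the library labelled knockout and about 3 in control, and at the depth of the control the labelled knockout level would have given about 42.8 reads. The log2 difference, taken as log2((knockout + 1)/(control + 1)), was 1.27, and it lay between 1.19 and 1.30 under 3 other scalings of the libraries. In stroma the ratio was 1.06, with limits of 0.868 and 1.30, and its direction turned under 1 of those 3 scalings. The contrast between the compartments was not tested.

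Promoter sequence was available from RefSeq (GRCm38.p6) for 7 of the 10 genes, as windows of 300 bases from 250 bases before to 50 after a start site. The TCF/LEF core, searched as CTTTGA and CTTTGT on both strands, was found in windows of Dkk2, Frzb and Lef1, 3 of 10 windows, and 31.2% of all 32851 windows held it. The homeodomain core TAATTG, searched on both strands because Msx1 and Msx2 are homeodomain factors, was in none of the 10 windows and in 8.0% of all. CTTTGA and CTTTGT differ in their last letter, so 1 position cannot hold both. A match is a description of letters, not a binding site, and the absence of a match concerns only this window. The windows of Axin2 and Dkk2, which had the largest epithelial ratios, are printed with those of the other genes holding the core. They run 5′ to 3′ in the direction of the gene, with the TCF/LEF core in capitals on whichever strand it was found.
Axin2: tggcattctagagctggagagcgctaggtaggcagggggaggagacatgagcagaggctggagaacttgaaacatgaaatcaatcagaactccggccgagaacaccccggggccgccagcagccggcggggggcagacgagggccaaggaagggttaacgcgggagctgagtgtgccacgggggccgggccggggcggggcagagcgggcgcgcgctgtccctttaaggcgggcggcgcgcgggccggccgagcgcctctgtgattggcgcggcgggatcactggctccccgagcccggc
Dkk2: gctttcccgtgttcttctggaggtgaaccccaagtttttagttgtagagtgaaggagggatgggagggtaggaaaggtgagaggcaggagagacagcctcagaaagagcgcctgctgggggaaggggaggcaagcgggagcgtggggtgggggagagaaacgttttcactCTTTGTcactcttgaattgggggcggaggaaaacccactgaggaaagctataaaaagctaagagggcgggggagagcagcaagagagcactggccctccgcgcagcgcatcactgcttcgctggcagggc
Frzb: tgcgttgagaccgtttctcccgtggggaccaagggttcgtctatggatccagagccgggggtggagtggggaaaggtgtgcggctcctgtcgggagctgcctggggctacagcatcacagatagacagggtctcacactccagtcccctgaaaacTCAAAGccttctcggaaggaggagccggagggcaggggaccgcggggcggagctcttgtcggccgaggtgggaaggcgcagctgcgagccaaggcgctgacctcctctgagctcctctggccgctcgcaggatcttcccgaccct
Lef1: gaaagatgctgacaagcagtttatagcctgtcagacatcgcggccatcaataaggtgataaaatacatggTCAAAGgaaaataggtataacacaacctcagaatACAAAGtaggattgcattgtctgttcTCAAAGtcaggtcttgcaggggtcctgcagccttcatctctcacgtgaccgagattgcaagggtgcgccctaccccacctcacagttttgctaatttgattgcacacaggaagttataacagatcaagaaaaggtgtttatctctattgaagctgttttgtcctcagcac
The windows are chr11:108920099-108920398 on the plus strand for Axin2, chr3:132085042-132085341 on the plus strand for Dkk2, chr2:80447347-80447646 on the minus strand for Frzb and chr3:131156044-131156343 on the plus strand for Lef1, the last being the furthest downstream of 4 annotated starts of Lef1. The Axin2 window holds no core and is 70.0% G and C. The core began 80 bases before the start site in Dkk2 and 95 bases before it in Frzb, while the Lef1 window held 3 copies.

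Stromal markers were lower in the epithelial library in which Axin2 was higher, at 8.78 RPKM against 19.0 RPKM in control, summed over 18. Leukocyte markers summed to 3.59 RPKM in the library labelled knockout and 23.6 RPKM in control over 13, and 9 of the 11 above 0 in both libraries were lower in the one labelled knockout. Smooth muscle markers summed to 1.05 RPKM in the library labelled knockout and 5.76 RPKM in control over 9, and 7 of the 8 above 0 in both were lower, at a median of 14.0% of control. Of the 5 endothelial markers above 0 in both, 4 were lower, at a median of 24.3% of control, although the sum over 10 was 0.842 RPKM in the library labelled knockout and 0.686 RPKM in control. Of those 10, 2 were listed at 0 in the library labelled knockout and 5 in control. The 9 markers of glands summed to 33.8 RPKM in the library labelled knockout and 20.8 RPKM in control, with 4 listed at 0 in each. Of the 5 gland markers above 0 in both, 1 was lower, and the shares of control ran from 35.4% (Foxa2) to 616% (Aldh1a1). The part of other cell types in the Axin2 difference was not tested. In bulk samples, fewer cells of a type and less RNA per cell cannot be told apart.

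In the authors' deposited table, Axin2 had a q-value of 0.0167 in luminal epithelium and was 1 of 94 genes marked significant there, 0.841% of 11176 genes tested. That test set 1 library against 1 other and says nothing about variation between mice. The table tested 3 of the 10 genes in luminal epithelium, Sfrp2 and Dkk2 being the others with q-values of 0.512 and 0.531. In stroma it tested 8 of the 10 and marked none of them, against 5 of 12239 genes (0.0409%) marked in all.

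**Figure D2:**
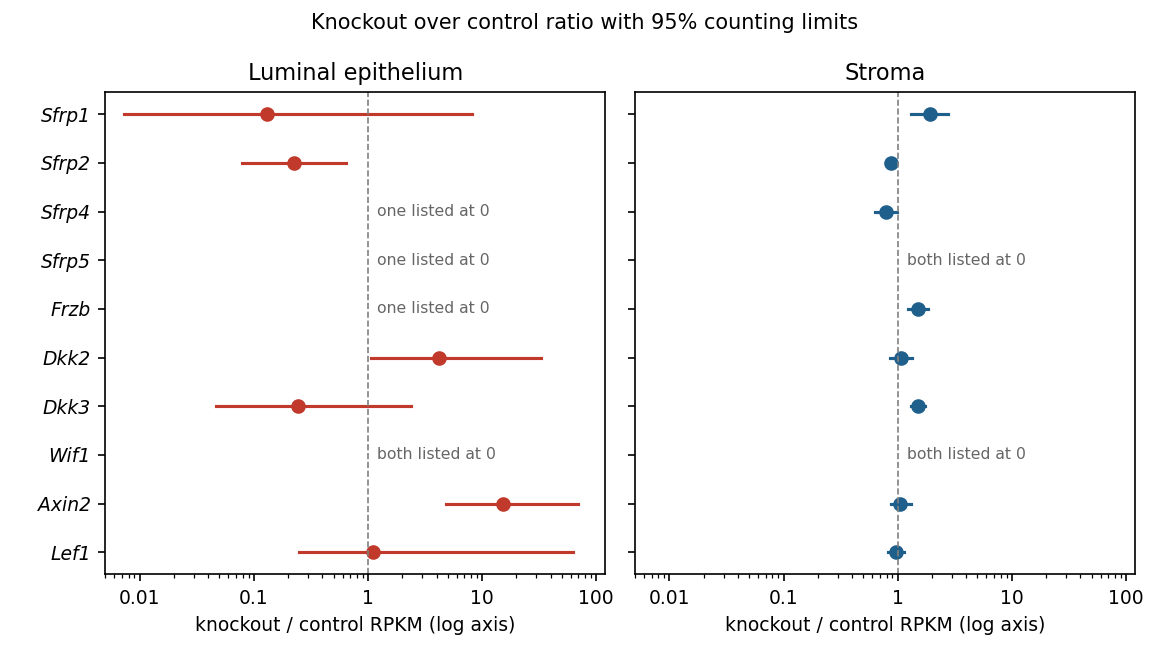
Ratio of RPKM, library labelled knockout over control, for the 10 genes in luminal epithelium (left) and stroma (right), with points for the ratio and lines for 95% counting limits on a log axis. In luminal epithelium, Axin2 at 15.4 and Dkk2 at 4.22 lie right of 1 and Sfrp2 at 0.227 left of it, with limits that leave out 1. The limits of Sfrp1, Dkk3 and Lef1 reach 1 there. The stromal ratios lie between 0.786 and 1.90 with narrower limits.

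Under the rule used across all genes, a gene was compared when its mean over the pair was at least 1 RPKM and counted as apart from a log2 difference of 1 upward in either direction. None of the 10 genes reached that mean in luminal epithelium, so none entered the rule that 7.02% of 7736 genes passed. Without a minimum of expression Axin2 was the 1 gene of the 10 to pass, higher in the library labelled knockout, against 1.82% of 23235 genes higher. In stroma Sfrp2, Sfrp4, Frzb, Dkk3 and Lef1 reached the mean, and 0 of these 5 passed, against 3.04% of 7723 genes. In luminal epithelium, 71.6% of the genes apart were higher in the library labelled knockout as deposited, but 58.2% when libraries were scaled without their 50 most abundant genes. That scaling moved the median log2 difference of all compared genes there by -0.18, and setting the median of genes of at least 5 RPKM to 0 moved it by -0.12.

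The order of levels in stroma was similar in both genotypes at its ends. In the library labelled knockout, Sfrp2 was followed by Dkk3, Lef1, Sfrp4, Frzb, Axin2, Dkk2 and Sfrp1. In the control the order was Sfrp2, Sfrp4, Dkk3, Lef1, Frzb, Axin2, Dkk2 and Sfrp1. Neighbours whose levels did not differ beyond counting error were Lef1 and Sfrp4, Sfrp4 and Frzb, and Axin2 and Dkk2 in the library labelled knockout. In the control they were Sfrp4 and Dkk3, Dkk3 and Lef1, and Axin2 and Dkk2. In luminal epithelium labelled knockout, Axin2 stood above Dkk2 by a factor of 4.69 (limits 3.85 and 5.81) and Dkk2 above Sfrp2 by 3.22 (limits 1.95 and 5.65). In luminal epithelium control no neighbouring pair differed beyond counting error, and Sfrp2 led Axin2 by a factor of 4.49 with limits of 0.962 and 27.8.

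Luminal epithelium was then set against stroma within each genotype, as a description, because the 2 tables were taken as normalized separately. Each of Sfrp1, Sfrp2, Dkk2, Dkk3 and Lef1 was lower in epithelium than in stroma in both genotypes, with counting limits below 1. Sfrp2 was 63.9-fold lower in the labelled knockout (limits 40.4 and 109) and 16.5-fold lower in the control (limits 6.97 and 41.8). Dkk3 was 140-fold lower (limits 65.9 and 341) in the labelled knockout and 22.7-fold lower (limits 6.05 and 183) in the control. Lef1 was 26.3-fold lower (limits 17.4 and 43.2) in the labelled knockout and 29.9-fold lower (limits 7.54 and 1678) in the control. Axin2 was the exception, at 169% of the stromal level in the labelled knockout (limits 146% and 196%) and 11.6% in the control (limits 2.56% and 37.4%).

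By the rule of 2-fold and a mean of 1 RPKM, Sfrp2, Dkk3 and Lef1 were lower in epithelium among 4 genes compared in the labelled knockout, where 10.7% of 8350 genes were lower. In the control Sfrp2, Sfrp4, Dkk3 and Lef1 were lower among 4 compared, where 12.1% of 8030 genes were lower. The genes called lower stood at 0.489 RPKM or less in epithelium, so they reached the mean only through stroma. The minimum thus favoured a call of lower for them, and these counts are not a result beside the shares of all genes. Without a minimum of expression 5 of the 10 genes were lower in the labelled knockout (5.28% of all genes) and 5 of the 10 in the control (5.73%). With 1 RPKM added to both values, only a gene of at least 1 RPKM in stroma could be called lower. The shares of all genes include genes listed at 0, so these counts are not a result beside them either. With the minimum, the direction of the calls was the same under the 3 other scalings. Those scalings moved the median log2 difference of all compared genes by between -0.50 and -0.29 in the labelled knockout and between -0.49 and -0.17 in the control. The share of calls higher in epithelium was 66.0% as deposited and 43.1% at the lowest in the labelled knockout, and 61.8% as deposited and 37.9% at the lowest in the control. The log2 difference of Axin2, epithelium over stroma in the labelled knockout, was 0.43 as deposited and between 0.02 and 0.19 under the other scalings.

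**Figure D3:**
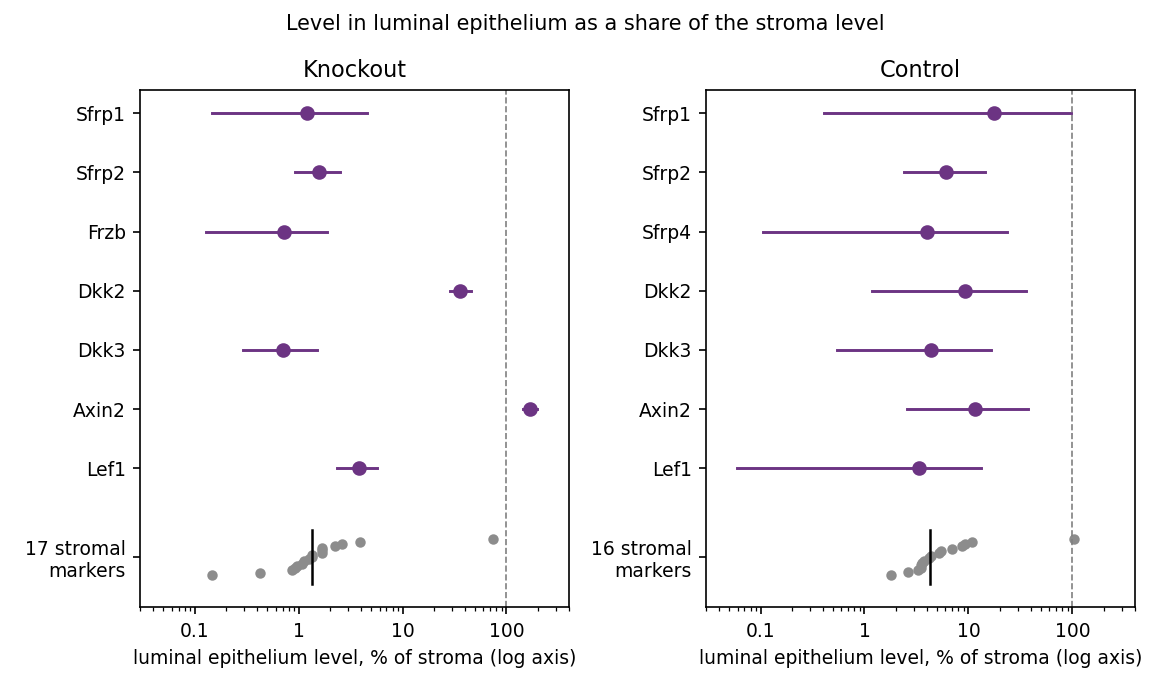
Level in luminal epithelium as a percentage of the level in stroma on a log axis, for genes above 0 in both libraries, with 95% counting limits, in the labelled knockout (left) and control (right). Grey points are the stromal markers above 0 in both, and the black line is their median, 1.35% and 4.29%. Dkk2 at 36.1% and Axin2 at 169% stand right of most markers in the labelled knockout. In the control, Sfrp1 at 17.5%, Axin2 at 11.6% and Dkk2 at 9.19% lie furthest right of the genes shown. They also stand right of most markers there, with wide limits.

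Of the 10 genes, Sfrp2 was the 1 that reached 5 RPKM, and the genes most like it across the 4 libraries were Des, Lamb1 and Fam102b. Likeness was the distance between log2(RPKM + 1) profiles over 4 libraries after each gene's mean was removed, among 2763 genes, so it describes 4 values only. Des, the muscle intermediate filament desmin, was at 0.110 RPKM in luminal epithelium labelled knockout, 0.526 RPKM in luminal epithelium control, 7.11 RPKM in stroma labelled knockout and 8.78 RPKM in stroma control, at a distance of 0.088. Lamb1, a laminin chain of basement membranes, lay at a distance of 0.20 and Fam102b at 0.21. Their 4 values followed the same order as those of Sfrp2, highest in stroma control.

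The other genes of the pathway were described from 8 lists, of which 100 genes were in the tables. In luminal epithelium 34 reached a mean of 1 RPKM, 2 were at least 2-fold higher in the library labelled knockout and 0 lower, with 24 of 34 above 0 and a median log2 difference of 0.33. At the pseudocount of 1 RPKM, the share higher, 5.88%, was near that of all 7736 genes compared there, of which 389 (5.03%) were higher and 154 lower. Over all of them 4792 were above 0 and the median was 0.10. The higher genes were the receptor gene Fzd4 and Igfbp4, a binding protein of insulin-like growth factors that also inhibits Wnt signalling. Fzd4 was at 5.91 RPKM in the library labelled knockout and 0.0501 RPKM in control, and Igfbp4 was at 3.73 RPKM in the library labelled knockout and 0.983 RPKM in control. The ratio of Fzd4 was 118, with wide limits of 33.5 and 1002, its control value being near 0. The ratio of Igfbp4 was 3.80, with limits of 2.55 and 6.20.

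By role, Porcn, which attaches the lipid that Wnt proteins need for release, was at 16.5 RPKM in epithelium labelled knockout and 8.13 RPKM in control. Tpbg, a membrane inhibitor of the pathway, was at 2.41 RPKM in the library labelled knockout and 0.910 RPKM in control. Bcl9, a co-activator bound to beta-catenin, was at 3.57 RPKM in the labelled knockout and 1.78 RPKM in control. Frat2, a binder of the kinase Gsk3, was at 2.46 RPKM in the labelled knockout and 1.15 RPKM in control. The co-repressor gene Tle3 was at 7.26 RPKM in the labelled knockout and 4.21 RPKM in control, and Tle1 at 4.07 RPKM in the labelled knockout and 2.31 RPKM in control. These 6 genes had log2 differences under 1 once 1 RPKM was added to both values. Without it, the ratios were 2.03 for Porcn, 2.64 for Tpbg, 2.01 for Bcl9 and 2.14 for Frat2. Those of Tle3 and Tle1 were 1.72 and 1.76. Another co-repressor gene, Tle2, had a mean below 1 RPKM and pointed the other way, at 0.263 RPKM in the labelled knockout and 1.42 RPKM in control, a log2 difference of -0.94; it was added after its values were seen. Ctnnb1, which encodes beta-catenin, was at 33.3 RPKM in epithelium labelled knockout, 38.6 RPKM in epithelium control, 22.1 RPKM in stroma labelled knockout and 19.9 RPKM in stroma control. None of the 3 other target genes compared in epithelium passed the rule.

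In stroma 30 of the 100 reached the mean, 1 was higher and 0 lower, with 18 of 30 above 0 and a median of 0.06, against 0.07 over all 7723 genes. Of those, 112 (1.45%) were higher and 123 lower, beside 3.33% (1 gene) of the pathway genes. The higher gene was the ligand gene Wnt5a, at 12.1 RPKM in the library labelled knockout and 5.34 RPKM in control, a log2 difference of 1.04 that was below 1 under 3 of 3 other scalings. Apcdd1, a membrane antagonist of Wnt, was at 3.41 RPKM in the library labelled knockout and 5.31 RPKM in control, a ratio of 0.641 with limits of 0.552 and 0.741. Tle3 was at 2.19 RPKM in the labelled knockout and 1.37 RPKM in control, and the receptor gene Ryk at 3.34 RPKM in the labelled knockout and 2.39 RPKM in control. The receptor genes Fzd2 and Fzd1 differed in opposite directions. Fzd2 was at 4.88 RPKM in the labelled knockout and 3.79 RPKM in control, while Fzd1 was at 4.19 RPKM in the labelled knockout and 5.15 RPKM in control. Igfbp4 was at 42.8 RPKM in the labelled knockout and 34.9 RPKM in control, and the growth regulator Myc at 6.14 RPKM in the labelled knockout and 5.02 RPKM in control. In these stromal libraries the stromal markers were higher in the one labelled knockout for 13 of 18 genes, and leukocyte markers were lower for 13 of 13. Their part in the stromal ratios was not tested.

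**Figure D4:**
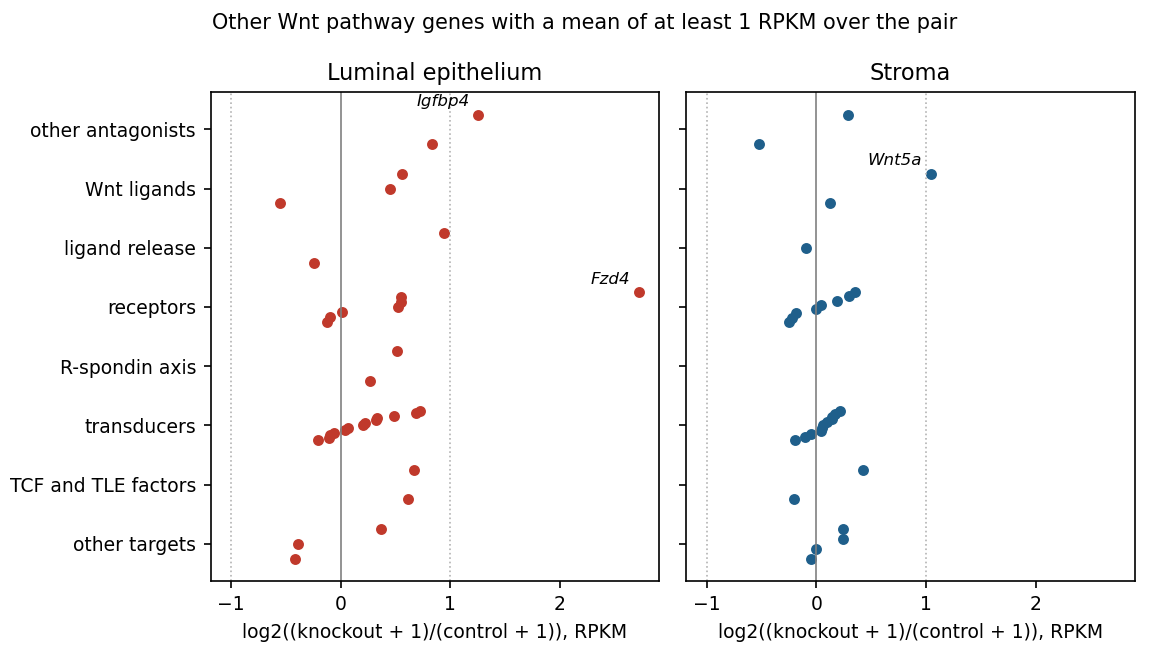
Log2 difference, library labelled knockout over control, of the other Wnt pathway genes whose mean reached 1 RPKM, by role, in luminal epithelium (34 genes, left) and stroma (30 genes, right). Dotted lines mark 1 and -1, and the named points beyond them are Fzd4 and Igfbp4 in epithelium and Wnt5a in stroma.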

How the data were processed

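RNA of 4 captured samples was measured, 1 library per group. The authors deposited RPKM in 2 tables, 1 per compartment. They were taken as normalized separately, which the file headers do not state. The p-values and q-values deposited in those tables are the authors' own comparison of knockout with control. The submitters' processing notes name Cufflinks 2.0.2, TopHat2 2.0.5, TopHat, CASAVA 1.8.2 and mm9, without roles. Settings and strand use in counting are not given in the sources used here. Starts were raised by 1, because 4312 of 18457 loci had the genomic span of a GENCODE transcript if starts were counted from 0, against 506 from 1.

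Within each pair, log2 differences were taken after adding a pseudocount of 1 RPKM, so differences of low genes are understated. No test was made, each group being 1 library. Depth was estimated as the scale at which low RPKM, times transcript length less 200 bases, piled up at whole reads. In each library 64.3% to 66.3% of low values lay within 0.2 of a whole number, which is no independent check since the scale was fitted to them. Lengths were known for 79.4% of genes, so some ratios carry no limits. The depth and calling steps were also run on simulated reads made with the same lengths less 200 bases. That run does not check the lengths themselves or the effect of amplified reads.

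The 10 genes, the pathway lists and the markers were chosen with earlier results of these data known. Genes named were these 10, Msx1, Msx2, Ctnnb1, up to 8 other pathway genes per compartment with the largest log2 difference among those with a mean of at least 1 RPKM, and the 3 genes most like any of the 10 reaching 5 RPKM. Any other gene named (Rpl26, Tle2, single marker genes and those of the closing observations) was picked with its values known. The symbols Draxin and Troy on the lists were not matched. Alternatives changed the pseudocount, scaling, minimum, gene models or fold. Tools were scipy 1.17.1, pandas 2.3.3, numpy 2.4.6 and matplotlib 3.10.9 under Python 3.11.15.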

Additional observations from a re-analysis of the deposited data

How the results depend on the processing

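No paired analysis was possible because each group held 1 library. For the 10 genes, the count apart in luminal epithelium, labelled knockout against control, was 0 and became 1 (Axin2) with no minimum of expression. For epithelium against stroma it was 3 in the labelled knockout, 5 with no minimum and 0 with a minimum of 5 RPKM, and 4 in the control, 0 with that minimum, under which no gene of the 10 was left to compare. Over all genes in luminal epithelium 543 were apart, against 919 and 975 with pseudocounts of 0.1 and 0.01 RPKM, 266 with the minimum of 5 RPKM and 1311 at 1.5-fold. In stroma 235 were apart, 73 without small RNA and unnamed models and 434 at 1.5-fold. For epithelium against stroma the count was 2620 in the labelled knockout, 963 with the minimum of 5 RPKM and 4193 at 1.5-fold, and 2547 in the control, 897 and 4100. On the Wnt pathway lists, the 10 genes included, 2 were apart in luminal epithelium, 5 and 7 with the smaller pseudocounts, 0 with the minimum of 5 RPKM and 8 at 1.5-fold. With the smaller pseudocounts, the 5 and 7 of 34 list genes compared were all higher, against 640 and 676 of 7736 genes. At 1.5-fold the 8 of 34 were all higher, against 917 of 7736. In stroma 1 was apart, and 0 under each of the 3 other scalings. Of 200 values for the 10 genes under other pseudocounts and scalings, 3 changed sign: Axin2 in stroma (1 value) and Lef1 in epithelium (2 values), labelled knockout against control, comparisons in which neither gene was counted as apart. Sizes moved where signs did not. The epithelial log2 difference of Axin2 was 1.27 at the pseudocount of 1 RPKM, and 3.09 and 3.83 with the smaller pseudocounts. That of Sfrp2, epithelium over stroma in the labelled knockout, was -2.86, and -5.09 and -5.87 with the smaller ones. The luminal epithelium control limited precision most: the 10 genes had about 6 reads or fewer each there, so low epithelial genes cannot be ranked in it.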

Other observations

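Lgr4, Rnf43 and Notum, which tune Wnt reception, were higher in both epithelial libraries than in both stromal ones; all genes named here were chosen after their values were seen. Lgr4, a receptor for R-spondins, was at 6.29 RPKM in luminal epithelium labelled knockout, 4.10 RPKM in luminal epithelium control, 0.809 RPKM in stroma labelled knockout and 0.667 RPKM in stroma control. Rnf43, a ubiquitin ligase that removes Frizzled receptors, was at 2.22 RPKM in luminal epithelium labelled knockout, 1.66 RPKM in luminal epithelium control, 0.0921 RPKM in stroma labelled knockout and 0.0926 RPKM in stroma control. The R-spondin ligand genes were low, with Rspo1 at 0.358 RPKM and Rspo3 at 0.382 RPKM in stroma labelled knockout, against 0.207 RPKM and 0.186 RPKM in stroma control. Notum, a secreted enzyme that removes the lipid of Wnt proteins, was at 1.03 RPKM in luminal epithelium labelled knockout, 0.462 RPKM in luminal epithelium control, 0.00896 RPKM in stroma labelled knockout and 0.0135 RPKM in stroma control. Its epithelial ratio of 2.22 had counting limits of 0.980 and 7.27.

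Other genes used as readouts of beta-catenin did not share one direction with Axin2 in luminal epithelium. Ccnd1, which encodes cyclin D1, was at 1.12 RPKM in the library labelled knockout and 0.401 RPKM in control, and the counting limits of the ratio of 2.78 were 1.44 and 6.09. Apcdd1 was at 1.03 RPKM in the library labelled knockout and 0.383 RPKM in control, and its ratio of 2.68 had limits of 1.04 and 10.1. The limits of Apcdd1 were taken on the deposited scale only, and the lower one is close to 1. Nkd2, a feedback inhibitor, was lower, at 0.259 RPKM in the library labelled knockout and 0.582 RPKM in control; its ratio was 0.445, limits 0.253 and 0.849. Wisp1 was lower as well, at 1.39 RPKM in the library labelled knockout and 2.14 RPKM in control; its ratio was 0.651, limits 0.504 and 0.852. Sp5 was listed at 0 in both epithelial libraries. These values come from 1 library per group and were not tested across mice.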
